A study of Mus musculus with 12 samples.

Results

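The interleukin-6 (IL-6) family was followed here through 10 genes, 5 cytokines (Il6, Osm, Lif, Clcf1 and Il11) and 5 receptor chains (Il6st, Il6ra, Lifr, Osmr and Il11ra1), out of 23337 genes with counts in mouse oesophageal epithelium. The members were taken by name and not by their values, though earlier results of these data were known when they were chosen. All 10 were listed in the count files, and 8 passed the filter on low counts. Il6 and Osm did not. No tested member passed edgeR's test in any of 8 comparisons between genotypes, and DESeq2 called Lif in 2 of them. Lif had the largest estimate in active IKKβ against Control, at 4.03 ± 0.189 CPM (SD, n = 3; CPM is the count of a gene relative to the scaled total of its library) with active IKKβ against 1.86 ± 0.717 (SD, n = 3) in Control.

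All 12 libraries came from C57BL/6 mice aged 6 weeks, with 3 libraries in each of 4 genotype groups. The epithelium had been pulled off the stroma mechanically before polyA RNA was taken. The Control group (ROSA26-StopFL-Ikk2ca+/L; Stat3L/L) carried both the silent transgene for constitutively active IKKβ and the floxed Stat3 alleles, but no Cre. The active IKKβ group (ED/L2-Cre+; ROSA26-StopFL-Ikk2ca+/L) carried Cre and the transgene. The Stat3 loss group (ED/L2-Cre+; Stat3L/L) carried Cre and the floxed alleles, and the combined group carried Cre and both. ED/L2 is an Epstein-Barr virus promoter that drives Cre in oesophageal epithelial cells. Since Control alone lacked Cre, an effect of Cre and an effect of the recombined alleles cannot be told apart in a comparison with Control. The effects averaged over IKKβ or Stat3 status and the interaction also use Control, so the same limit holds for them. Active IKKβ turns on NF-κB, and STAT3 is the main transcription factor below the IL-6 family receptors, so the design asks how each, alone and together, alters gene expression in this tissue. Whether the libraries within a group came from separate animals is not given in the labels, and p-values measure only the spread between these libraries.

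The cytokines of the IL-6 family followed here act through gp130, the shared signalling chain encoded by Il6st. IL-6 and IL-11 bind their own alpha chains, encoded by Il6ra and Il11ra1, and then assemble gp130 pairs. LIF joins gp130 with the LIF receptor, oncostatin M joins gp130 mainly with the oncostatin M receptor in the mouse, and CLCF1 signals with CNTFR through gp130 and the LIF receptor. Each complex activates JAK kinases and STAT3, and SOCS3 shuts the signal off. NF-κB is a known activator of Il6 and Lif transcription.

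Library totals ran from 14816468 to 30188363 counts. The 10 oesophageal epithelium markers (among them Krt5, Krt14, Krt4, Krt13 and Trp63) were present in every library, with a summed level of 59920 to 182300 CPM. Krt4 (15390 to 87690 CPM) and Krt13 (19460 to 73780 CPM) spanned the widest ranges, beside 8673 to 16090 CPM for Krt5. The sum thus follows mainly Krt4 and Krt13 and is not a measure of the amount of epithelium. Nfkbia, a direct NF-κB target, rose by a log2 fold change of 1.11 ± 0.17 (SE) in active IKKβ against Control (edgeR quasi-likelihood test, adjusted p = 0.0097). Ikbkb, which encodes IKKβ, rose by 0.43 ± 0.10 when the IKKβ effect was averaged over Stat3 status (edgeR adjusted p = 0.037). Neither call held among the male libraries, with Nfkbia at 1.09 (edgeR adjusted p = 0.12) and Ikbkb at 0.52 (edgeR adjusted p = 0.088), and that of Ikbkb was also lost without the gastric-rich libraries described next, at 0.37 (edgeR adjusted p = 0.13). Stat3 was at 139 to 154 CPM in the Stat3 loss group. It was at 157 to 179 CPM in Control, 159 to 239 in active IKKβ and 154 to 194 in the combined group. Counts over the whole gene do not resolve the floxed exons, so Stat3 did not check the labels. Replicate 1 of every group was female and replicates 2 and 3 were male, by Xist and Y-linked genes. The 12 gastric epithelium markers summed to 1709 CPM in replicate 1 of active IKKβ and to 113 CPM in replicate 3 of Stat3 loss, where no other library exceeded 19.1 CPM. Member estimates that changed sign without those libraries, or among the males, are given in the closing section.

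Lif was the ligand with the clearest pattern, and its promoter, like that of Il6, holds matches to the NF-κB and AP-1 motifs. The 250 bases before the RefSeq start of each (GRCm38.p6, the sequence of mm10) are shown because both genes are known NF-κB targets, yet 1 was counted in every library and the other in almost none. Capitals mark the motif matches. The Il6 stretch lies at chr5:30012864-30013113 and the Lif stretch at chr11:4257318-4257567, both on the plus strand.
Il6: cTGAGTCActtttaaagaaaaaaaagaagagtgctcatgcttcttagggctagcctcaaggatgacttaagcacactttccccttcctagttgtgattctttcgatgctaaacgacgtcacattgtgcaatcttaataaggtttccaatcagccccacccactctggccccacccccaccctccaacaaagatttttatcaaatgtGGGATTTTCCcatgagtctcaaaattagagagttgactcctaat
Lif: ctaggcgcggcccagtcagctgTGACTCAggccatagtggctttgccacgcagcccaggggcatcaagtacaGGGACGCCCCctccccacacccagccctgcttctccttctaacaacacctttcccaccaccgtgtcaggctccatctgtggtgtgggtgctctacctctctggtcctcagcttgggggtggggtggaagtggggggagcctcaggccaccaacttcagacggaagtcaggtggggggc

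The Il6 stretch holds an AP-1 match, TGAGTCA, near its far end and a κB match, GGGATTTTCC, that ends 35 bases before the start. The Lif stretch holds the AP-1 match TGACTCA and, 178 to 169 bases before the start, the κB match GGGACGCCCC. Promoters of 300 bases (250 before and 50 after the start) were available for 8 of the 10 members, 11 promoters in all. Both strands were searched for the AP-1 motif TGANTCA, the STAT motif TTCNNNGAA and the κB consensus. Il6 and Lif were the 2 of these 8 members with a κB match, where 8.46% of all 32851 promoters had one. AP-1 matches were in 4 of the 8, Il6, Lif, Il11 and Osmr, where 7.81% of all promoters had one. A member was counted if any of its promoters matched, so counts of members and shares of promoters are unlike measures. No member promoter held the STAT motif, which 8.3% of all promoters hold. These matches describe letters and are not evidence of binding, and no match says only that the letters are not in the window.

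Il6, the founding cytokine of the family (mm10 chromosome 5, 30013114 to 30019981, plus strand), was close to absent from the libraries. It had 0 counts in 11 libraries and 3 counts in Stat3 loss replicate 2. In Control, 0 of 64430570 counts allow a level of up to 0.0466 CPM, and with active IKKβ, 0 of 68676840 counts allow up to 0.0437 CPM. A difference between groups below those levels was not detectable at this depth. Such limits cover counting error only.

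Osm, which encodes oncostatin M, a cytokine made chiefly by myeloid and lymphoid cells (chromosome 11, 4236420 to 4241026, plus strand), had 16 counts in the 12 libraries together. It had 3 counts in each of the 3 active IKKβ libraries. Control had 1, 0 and 0 counts, Stat3 loss 3, 0 and 0, and the combined group 0, 1 and 2. Every active IKKβ library was above every Control library and above every combined library when scaled by library size. The ratio of active IKKβ to Control was 8.44 (9 counts against 1; 95% exact counting interval 1.17 to 370.1), and an exact two-sided permutation test over libraries gave p = 0.1, the smallest that 3 against 3 allows. The ratio of combined to active IKKβ was 0.40 (3 counts against 9; 95% exact counting interval 0.0697 to 1.60; exact permutation p = 0.1). Both intervals cover counting error only and not the spread between libraries. Without the count filter, edgeR gave Osm an unadjusted p of 0.078 and an adjusted p of 0.52 for active IKKβ against Control. For combined against active IKKβ, edgeR gave 0.32 and 0.79. The labels describe bulk tissue, in which fewer cells of a type and less RNA per cell cannot be told apart.

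Markers of immune cells were measured beside Osm, and their part in its counts was not tested. The 9 Langerhans and dendritic cell markers summed to 473 to 581 CPM with active IKKβ and 98.8 to 240.4 in Control. The combined group ran from 146 to 436 CPM and Stat3 loss, where 1 library had 3 Osm counts, from 69.4 to 148 CPM. Active IKKβ alone was thus above every other group for these markers. The 10 macrophage markers summed to 107 to 138 CPM with active IKKβ and, overlapping it, 52.2 to 113 in Control. The combined group ran from 45.3 to 93.2 CPM and Stat3 loss from 34.1 to 104 CPM. No gene of either list was at 0 in any Control or active IKKβ library, and at most 2 of the Langerhans list were at 0 in a library of the other groups. The 12 lymphoid markers summed to 4.3 to 8.75 CPM with active IKKβ and 1.79 to 6.22 in Control, with 2 to 3 of them at 0 in those libraries.

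Lif encodes leukaemia inhibitory factor and lies 16.5 kb downstream of Osm (chromosome 11, 4257557 to 4272514, plus strand). With active IKKβ it was at 3.83, 4.21 and 4.04 CPM in replicates 1, 2 and 3, and in Control at 1.29, 2.67 and 1.64 CPM. The active IKKβ libraries were all above the Control libraries. They were the most alike of any group for this gene, with a coefficient of variation of 4.69% against 38.5% in Control. At their 81, 87 and 94 counts, counting error alone allows a wider spread, so the closeness describes these libraries only. Stat3 loss gave 2.25, 2.20 and 1.80 CPM, inside the Control range, and the combined group gave 2.95, 2.03 and 3.93 CPM. The combined libraries thus spread from the level of Stat3 loss up to that of active IKKβ, and overlap both. The log2 fold change of active IKKβ over Control was 1.11 ± 0.33 (SE; 95% interval 0.39 to 1.83), a 2.16-fold higher level, with an unadjusted p of 0.0062 and an adjusted p of 0.19 in edgeR. DESeq2, run as the alternative test, gave the same estimate with an adjusted p of 0.034, so the call for Lif depends on the test. Among males, with 2 libraries a group, the estimate was 0.94 (edgeR adjusted p = 0.67).

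Clcf1, the cardiotrophin-like cytokine (chromosome 19, 4214238 to 4223490, plus strand), had 1 library apart. With active IKKβ it was at 5.01, 1.98 and 2.02 CPM, and in Control at 2.68, 1.78 and 1.14 CPM. The high value is active IKKβ replicate 1, the library rich in gastric transcripts, and the groups overlap. The log2 fold change of 0.69 ± 0.44 (SE; edgeR adjusted p = 0.54) was 0.11 without both gastric-rich libraries. Stat3 loss gave 2.79, 2.28 and 1.91 CPM and the combined group 2.45, 1.57 and 2.15 CPM. Replicate 1, the female library, was the highest of its group for Clcf1 in all 4 groups, a pattern shared by 680 of the 14134 tested genes (4.81%). The GENCODE M21 annotation places 311 exonic bases of Clcf1 under another protein-coding model on the same strand. The files do not list that model, and how reads there were counted is not known.

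Il11, the IL-11 cytokine gene (chromosome 7, 4772373 to 4782859, minus strand), was the lowest of the tested members in counts, with 229 in all libraries together. Control had 1.79, 0.836 and 0.686 CPM and active IKKβ 1.135, 0.435 and 0.688 CPM. Stat3 loss had 0.901, 0.703 and 0.436 CPM, and the combined group 1.502, 1.57 and 0.680 CPM. All groups overlap. Its interaction estimate of 1.40 ± 0.75 (SE; 95% interval -0.26 to 3.06; edgeR unadjusted p = 0.0897, adjusted p = 1) was the largest of any member and also the least precise.

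**Figure D1:**
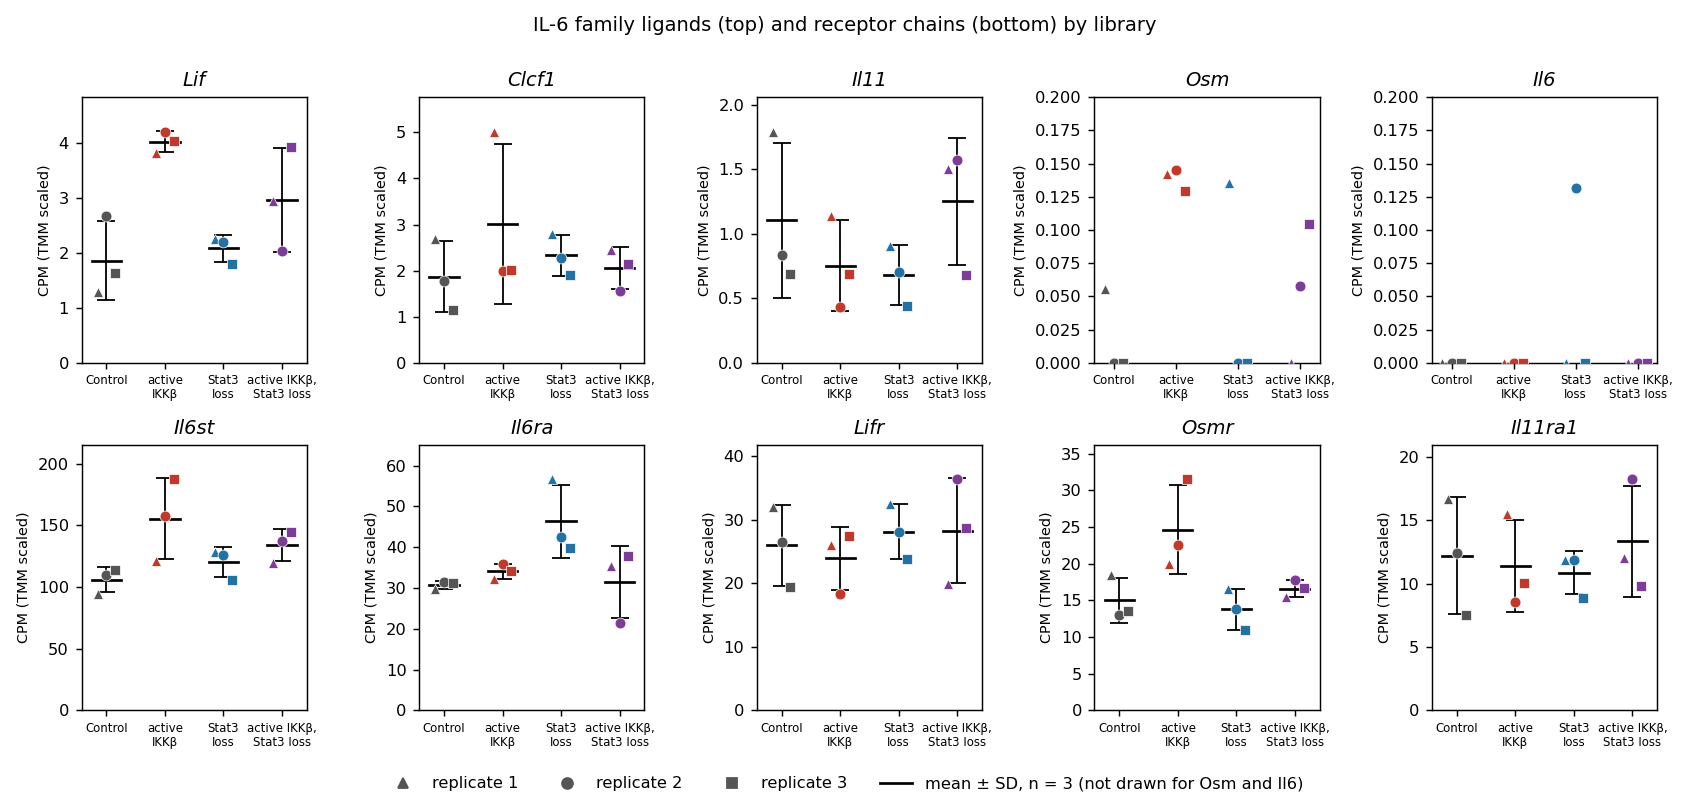
Level of each of the 10 members in CPM scaled by TMM (vertical axes, each from 0) in the 12 libraries, by genotype group; marker shape gives the replicate number, and the bar and whiskers the mean ± SD of 3 libraries where drawn. The 3 active IKKβ libraries lie above the 3 Control libraries for Lif, Osm, Il6st, Osmr and Il6ra, and the 3 Stat3 loss libraries lie above all other libraries for Il6ra.

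Among the receptor chains, Il6st encodes gp130, the chain shared by the cytokines followed here (chromosome 13, 112464070 to 112510086, plus strand). Control libraries were at 94.4, 109.8 and 113.5 CPM and active IKKβ libraries at 121.3, 157.9 and 187.4 CPM. All active IKKβ libraries were above all Control libraries, though active IKKβ replicate 1 was below the highest library of Stat3 loss. Stat3 loss gave 128.6, 125.8 and 105.9 CPM, which overlaps Control, and the combined group 119.6, 137.6 and 144.9 CPM, which lies above Control. The log2 fold change of active IKKβ over Control was 0.55 ± 0.16 (SE; 95% interval 0.20 to 0.91), a 1.47-fold higher level, with an unadjusted p of 0.0053 and an adjusted p of 0.19 in edgeR. For combined over Control it was 0.34 ± 0.16 (SE; edgeR unadjusted p = 0.057, adjusted p = 0.45). Averaged over Stat3 status, the IKKβ effect on Il6st was 0.36 ± 0.11 (SE; edgeR adjusted p = 0.15), and without active IKKβ replicate 1 it was 0.43 with an adjusted p of 0.044, the only fit in edgeR that called a member.

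Il6ra, the alpha chain that gives cells their own response to IL-6 (chromosome 3, 89864059 to 89913196, minus strand), had its highest levels in the Stat3 loss group. Stat3 loss libraries were at 56.7, 42.4 and 39.8 CPM and Control libraries at 29.6, 31.4 and 31.2 CPM. All 3 Stat3 loss libraries were above all 9 others, and the highest was the female library. Active IKKβ gave 32.3, 35.9 and 34.2 CPM, above every Control library, and the combined group 35.4, 21.4 and 37.8 CPM. The low combined library is replicate 2. It has the fewest counts of any library and the lowest sum of epithelium markers, 59920 CPM, which follows mainly Krt4 and Krt13. The part of depth or of this sum in the library's Il6ra level was not tested. The log2 fold change of Stat3 loss over Control was 0.59 ± 0.20 (SE; 95% interval 0.16 to 1.03), with an unadjusted p of 0.012 and an adjusted p of 0.52 in edgeR. That of combined over Stat3 loss was -0.55 ± 0.20 (SE; 95% interval -0.99 to -0.12; edgeR unadjusted p = 0.017, adjusted p = 0.39). The test of the difference itself, the interaction, gave -0.70 ± 0.28 (SE; edgeR unadjusted p = 0.029, adjusted p = 1). Stat3 loss over Control and combined over Stat3 loss share the 3 Stat3 loss libraries, so their opposite signs are not separate results. Combined over Control was at 0.037 ± 0.20 (SE; edgeR adjusted p = 0.98). Among males the Stat3 loss estimate was 0.39 (edgeR adjusted p = 0.99).

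Osmr, the oncostatin M receptor chain (chromosome 15, 6813577 to 6874969, minus strand), lay higher with active IKKβ alone than in any other group. Active IKKβ libraries were at 19.9, 22.5 and 31.5 CPM and Control libraries at 18.5, 13.01 and 13.5 CPM. Stat3 loss gave 16.5, 13.8 and 10.96 CPM and the combined group 15.4, 17.8 and 16.6 CPM. The active IKKβ libraries do not overlap any other group, whereas Control, Stat3 loss and the combined group overlap each other. The log2 fold change of active IKKβ over Control was 0.72 ± 0.21 (SE; 95% interval 0.24 to 1.19), a 1.64-fold higher level, with an unadjusted p of 0.0066 and an adjusted p of 0.20 in edgeR. That of combined over active IKKβ was -0.57 ± 0.21 (SE; 95% interval -1.04 to -0.098; edgeR unadjusted p = 0.022, adjusted p = 0.46). The interaction estimate for Osmr was -0.45 ± 0.30 (SE; 95% interval -1.11 to 0.22), so the data do not show that the IKKβ effect differs with Stat3 status. Among males the active IKKβ estimate was 1.03 (edgeR adjusted p = 0.27).

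Lifr, which pairs with gp130 for LIF and CLCF1 and lies 215.6 kb from Osmr (chromosome 15, 7090614 to 7197489, plus strand), showed no such separation. Control was at 32.0, 26.6 and 19.4 CPM, active IKKβ at 26.01, 18.2 and 27.5, Stat3 loss at 32.5, 28.1 and 23.8, and the combined group at 19.8, 36.4 and 28.6. Every pair of groups overlaps. The log2 fold changes from Control were -0.12 ± 0.25, 0.12 ± 0.25 and 0.12 ± 0.25 (SE) for active IKKβ, Stat3 loss and the combined group. The 95% interval for active IKKβ, -0.67 to 0.44, leaves room for differences in either direction.

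Il11ra1, the alpha chain for IL-11 (chromosome 4, 41699989 to 41769474, plus strand), also overlapped between all groups. Control was at 16.7, 12.4 and 7.51 CPM, active IKKβ at 15.5, 8.56 and 10.1, Stat3 loss at 11.9, 11.9 and 8.89, and the combined group at 12.01, 18.2 and 9.79. The spread within Control was wider than the distance between any group means. Mice carry a near-identical copy, Il11ra2, which was listed at 0 in every library, so how reads were shared between the copies is uncertain.

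**Figure D2:**
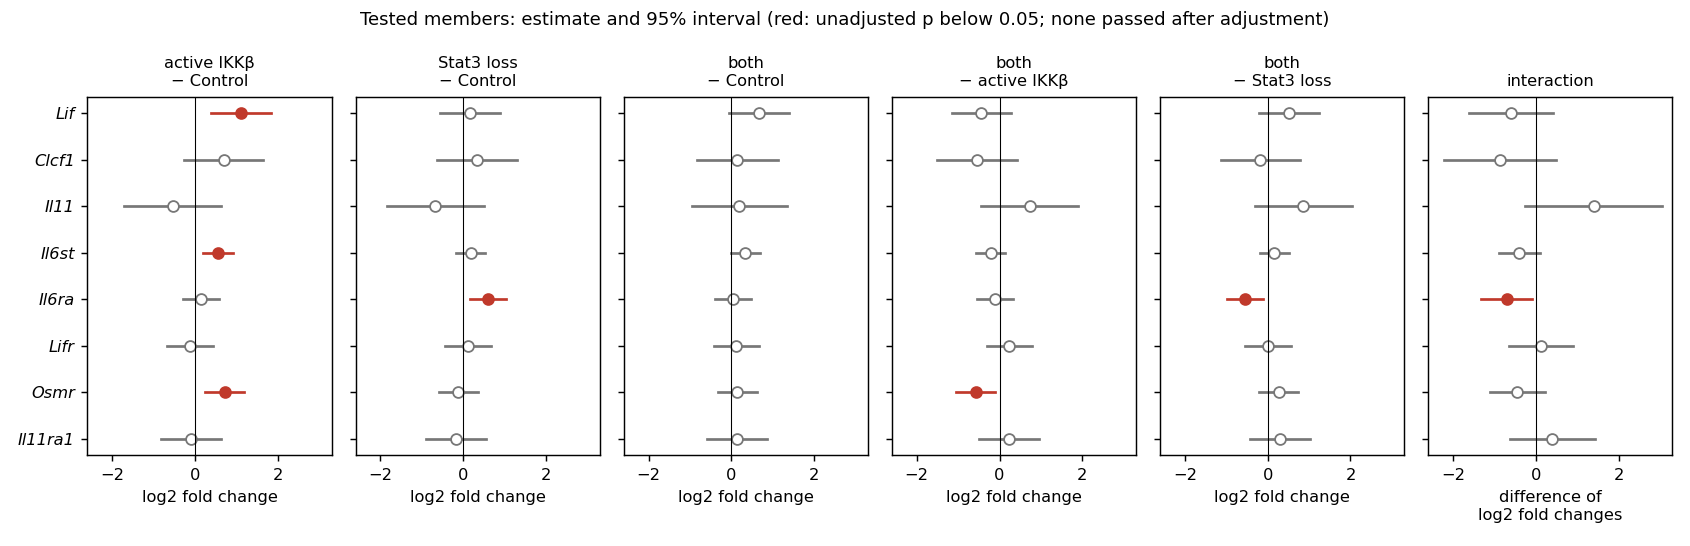
Log2 fold change (horizontal axes) of the 8 tested members in 5 comparisons of groups, and the difference of log2 fold changes for the interaction, with 95% intervals from the edgeR fit; red marks an unadjusted p below 0.05, and none passed after adjustment. Lif, Il6st and Osmr lie to the right of 0 for active IKKβ over Control. Il6ra lies on opposite sides of 0 for Stat3 loss over Control and for the combined group over Stat3 loss. Those comparisons share the Stat3 loss libraries, and Il6ra lies near 0 for the combined group over Control.

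Set against all 14134 tested genes, the members' counts read as follows. In active IKKβ against Control 0 of 8 members were called at an adjusted p below 0.05, where 0.955% of all genes were called (edgeR), and DESeq2 called 1 member, Lif. In the same comparison 3 of 8 members, Lif, Il6st and Osmr, had an unadjusted p below 0.05, against 13% of all genes, and 4 of 8 had libraries that did not overlap, against 17.6%. In Stat3 loss against Control 0 of 8 members and 0% of all genes were called, 1 member (Il6ra) had an unadjusted p below 0.05 against 7.5% of genes, and 1 did not overlap against 13.1%.

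Combined against Control called 0 of 8 members and 0.884% of genes, with 0 members at an unadjusted p below 0.05 (11.5% of genes) and 1 not overlapping, Il6st (15% of genes). Combined against active IKKβ called 0 of 8 members and 0% of genes, with 1 member, Osmr, at an unadjusted p below 0.05 (9.88% of genes) and not overlapping (14.7%). Combined against Stat3 loss called 0 of 8 members and 0.46% of genes, with 1 member, Il6ra, at an unadjusted p below 0.05 (8.96%) and not overlapping (12.9%). With 8 members, 1 of them is near these shares, so the Stat3 loss and combined comparisons gave no result about the family as a group. DESeq2 called 0 members in these 4 comparisons.

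The averaged effects used 6 libraries against 6. The IKKβ effect averaged over Stat3 status called 0 of 8 members and 2.72% of genes in edgeR, and DESeq2 called 1 member, Lif (adjusted p = 0.016). Lif had an estimate of 0.81 ± 0.23 (SE; edgeR unadjusted p = 0.0050, adjusted p = 0.11), Osmr 0.49 ± 0.15 (unadjusted p = 0.0077, adjusted p = 0.14) and Il6st the value given above. These 3 members were those with an unadjusted p below 0.05, against 15.5% of genes. None of the 8 separated the 6 libraries with active IKKβ from the 6 without, which 2.16% of genes did.

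The Stat3 effect averaged over IKKβ status called 0 of 8 members and 0.262% of genes. Osmr was the member with an unadjusted p below 0.05 (12.7% of genes), at -0.35 ± 0.15 (SE; edgeR unadjusted p = 0.043, adjusted p = 0.37), and no member separated the 6 libraries from the 6, against 1.04% of genes. The interaction called 0 of 8 members and 0% of genes, with Il6ra at an unadjusted p below 0.05 against 4.66% of genes. DESeq2 called 0 members in both.

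The median log2 fold change of the 8 tested members was 0.35 in active IKKβ against Control, beside 0.0048 for all tested genes. It was 0.14 in Stat3 loss against Control beside -0.016, and 0.15 in combined against Control beside 0.0019. Combined against active IKKβ gave -0.16 beside -0.015, and combined against Stat3 loss 0.21 beside 0.012. All 8 members had an estimate above 0 in combined against Control, where 50.3% of genes did, but 5 of the 8 estimates were under 0.15. The comparisons that include Control share its 3 libraries, so a low or high Control library moves them together.

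Levels were compared between genes per length of transcript, as RPKM, which is CPM divided by the exon length in kilobases. In Control Il6st was the highest at 9.54 ± 0.911 RPKM (SD, n = 3), followed by Il6ra at 3.56 ± 0.112, Il11ra1 at 2.73 ± 1.03, Lifr at 2.41 ± 0.588 and Osmr at 1.24 ± 0.251. The ligands lay lower, with Il11 at 0.530 ± 0.288 RPKM, Clcf1 at 0.491 ± 0.203 and Lif at 0.428 ± 0.165. The libraries of Il6st stood clear of those of Il6ra, those of Lifr of those of Osmr, and those of Osmr of those of Il11. Il6ra, Il11ra1 and Lifr overlap in neighbouring order, as do Il11, Clcf1 and Lif. Every receptor chain in Control was thus above every ligand in RPKM.

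Il6st was the highest and Il6ra the second highest member by mean RPKM in all 4 groups. With active IKKβ, Il6st was at 14.0 ± 2.98 RPKM, Osmr at 2.03 ± 0.503 and overlapping Lifr at 2.22 ± 0.461, and Lif was the highest ligand at 0.926 ± 0.0434 RPKM (SD, n = 3 each). Lif was the lowest of the tested ligands in Control, but overlapped Clcf1 in both groups. With Stat3 loss Il6ra was at 5.36 ± 1.05 RPKM, clear of Lifr at 2.61 ± 0.404. In the combined group Lif was at 0.683 ± 0.218 RPKM and overlapped Il11 at 0.601 ± 0.238.

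**Figure D3:**
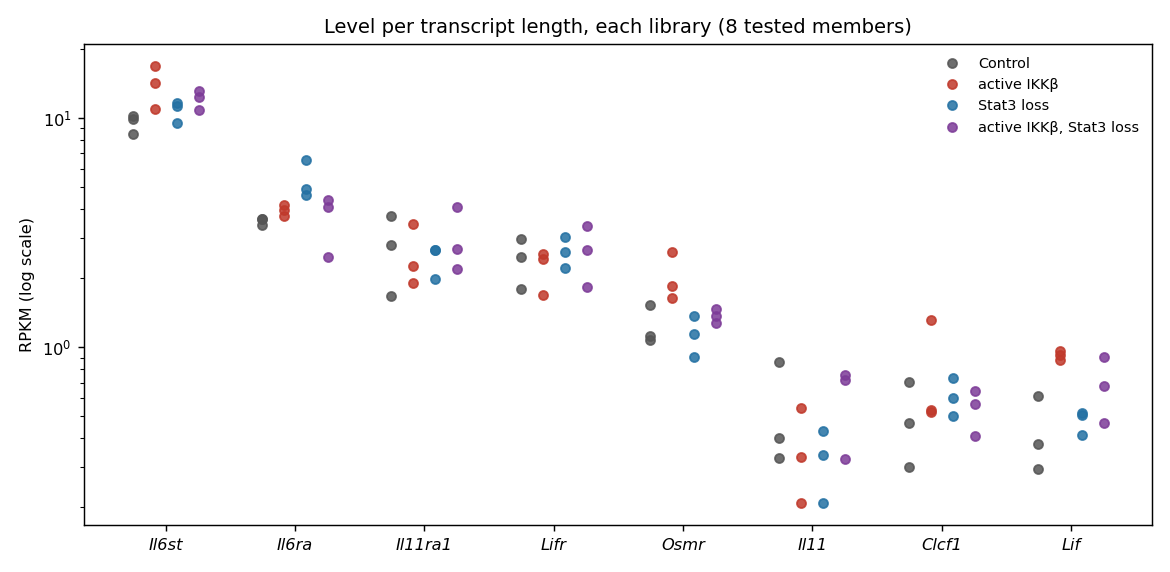
Level per transcript length in RPKM (vertical log axis) of the 8 tested members in each of the 12 libraries, with colours for the 4 genotype groups. The 5 receptor chains lie to the left and the 3 ligands to the right; Il6st lies above every other member in every library, and the active IKKβ libraries of Lif lie close together near 0.926 RPKM.

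The ratio of chains within a library does not depend on how the library was scaled. The Il6st to Il6ra ratio, in RPKM, ran from 2.48 to 2.83 in Control and 2.93 to 4.26 with active IKKβ. Stat3 loss ranged from 1.77 to 2.31 and the combined group from 2.63 to 5.01. Active IKKβ lay above Control, and Stat3 loss below it, without overlap. The Il6ra to Osmr ratio ran from 4.30 to 5.09 with Stat3 loss, above every library of the other groups. Control ranged from 2.24 to 3.38, active IKKβ from 1.52 to 2.27 and the combined group from 1.69 to 3.22. The 5 ratios were chosen after the levels had been seen. Over 25 exact two-sided permutation tests of them the smallest p was 0.1, the lowest that 3 against 3 allows, and the smallest adjusted p was 0.42, so none of these tests could pass at 0.05 and the ratios are a description.

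Lif had the smallest adjusted p of the members, and the genes whose log2 CPM followed it most closely over the 12 libraries, among 11343 genes with enough counts, were Kif26a (Pearson r 0.952, Spearman rho 0.951), Otud4 (r 0.942, rho 0.937) and Ptprk (r 0.925, rho 0.881). These were picked as the highest of many, and the 12 points share the 4 genotypes, so the values are a description.

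The rest of the gp130 pathway was described through gene lists. Of 11 other family members, 5 passed the filter, among them Cntfr, Ctf1 and Ebi3, and none was called in any comparison. Cntf, Ctf2, Il27, Il31, Il31ra and Il11ra2 had too few counts. Cntfr, the alpha chain used by CLCF1, was at 2.98, 2.81 and 6.41 CPM with active IKKβ and at 1.502, 2.21 and 1.36 CPM in the combined group. Those groups do not overlap, and the log2 fold change of combined over active IKKβ was -1.27 ± 0.46 (SE; edgeR adjusted p = 0.46). Ctf1, which encodes cardiotrophin-1, had its lowest adjusted p, 0.34, for the averaged IKKβ effect, at -0.38 ± 0.18 (SE; edgeR). Ebi3, the shared subunit of IL-27 and IL-35, was at 0.273 to 0.361 CPM with Stat3 loss and 0.381 to 1.05 CPM in Control.

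The list of 20 genes that carry the signal from the receptors (JAK kinases, STATs, adaptors and the shedding proteases Adam10 and Adam17) passed the filter in full, and 0 were called in any comparison. Its median log2 fold change in active IKKβ against Control was 0.20, with 16 of 20 estimates above 0, where 50.7% of all genes were above 0. The genes of the list with the smallest adjusted p were Erbb2ip, a scaffold protein gene, Gab2, an adaptor, and Src, a kinase. Gab2 was at -1.14 ± 0.35 (SE) in combined against active IKKβ (edgeR adjusted p = 0.41). Src was at 0.31 ± 0.09 and Erbb2ip at 0.31 ± 0.09 (SE) for the averaged Stat3 effect (edgeR adjusted p = 0.20 and 0.21).

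Of 15 inhibitors of the pathway (SOCS and PIAS proteins, phosphatases, Cbl and Usp18), all passed the filter and 0 were called in any comparison. Socs3, the main feedback inhibitor of gp130, was at 64.7, 50.2 and 41.9 CPM in Control and at 61.2, 37.1 and 54.2 CPM in active IKKβ. Stat3 loss libraries had 50.7, 40.4 and 50.01 CPM, and combined libraries 39.3, 66.1 and 26.4 CPM. The groups all overlap for Socs3, and the log2 fold change of Stat3 loss over Control was -0.15 ± 0.30 (SE; edgeR adjusted p = 0.95). Ptprc, the leukocyte phosphatase CD45, was at 1.52 ± 0.54 (SE) in active IKKβ against Control (edgeR adjusted p = 0.28), beside the immune marker sums given for Osm. Socs7 was at 0.30 ± 0.09 (SE) in combined against Control (edgeR adjusted p = 0.20), and Socs5 at 0.22 ± 0.09 for the averaged IKKβ effect (edgeR adjusted p = 0.29).

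Of 42 genes known to be induced by IL-6, oncostatin M or LIF, 32 passed the filter. The list was chosen with earlier results of these data known. Its shares beside those of all genes, here and below, are thus a description and not an independent result. In active IKKβ against Control 4 of the 32 rose and 0 fell, with a list median of 0.35 beside 0.0048 for all genes, where 0.899% of all genes were called higher. S100a8, a calprotectin subunit, rose by 6.78 ± 0.63 (SE), from 0.941 to 1.40 CPM in Control to 72.0, 122.7 and 184.7 CPM. Lcn2, an iron-sequestering protein of innate defence, rose by 5.50 ± 0.74, and S100a9, the partner of S100a8, by 3.61 ± 0.66. Steap4, a metalloreductase, rose by 3.78 ± 0.34, from 3.80, 7.58 and 4.88 CPM to 62.5, 69.4 and 91.2 CPM. The edgeR adjusted p-values of these genes ran from 6.8e-04 (Steap4) to 0.031 (S100a9). Each of the 4 is also known as an NF-κB target. The markers of neutrophils, cells in which S100a8, S100a9 and Lcn2 are abundant, summed to 7.38 to 29.8 CPM with active IKKβ and 6.22 to 21.5 in Control. In those libraries 3 to 6 of the 10 neutrophil markers with an entry were at 0. Only Cxcr2 among them passed the filter on low counts, so the sum says little about neutrophils. The part of these cells in the result was not tested.

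In combined against Control 3 of the 32 targets rose (0.566% of all genes were called higher) and 0 fell. S100a8 rose by 4.23 ± 0.58 (SE), Lcn2 by 3.56 ± 0.71 and Steap4 by 3.24 ± 0.33, with edgeR adjusted p-values of 0.0071, 0.047 and 0.0019. Combined against Stat3 loss raised 2 of the 32, S100a8 by 3.46 ± 0.55 and Steap4 by 3.19 ± 0.33 (edgeR adjusted p = 0.023 and 0.0024), where 0.41% of all genes were called higher. The averaged IKKβ effect raised 5, with Il4ra, the IL-4 receptor chain, joining at 0.50 ± 0.11 (SE; edgeR adjusted p = 0.044), where 2.12% of all genes were called higher. No target was called in Stat3 loss against Control, in combined against active IKKβ, in the averaged Stat3 effect or in the interaction. In combined against active IKKβ, where 0% of all genes were called, S100a8 was at -2.56 ± 0.50 (SE; edgeR adjusted p = 0.22) and Lcn2 at -1.94 ± 0.60 (edgeR adjusted p = 0.41), and the combined libraries of both lay below the active IKKβ libraries.

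The calls of targets were refitted without the gastric-rich libraries and among males, which was decided after the data were seen. In active IKKβ against Control, all 4 calls held without the gastric-rich libraries, where 5 targets were called, 4 higher and 1 lower. Among males, S100a8 and Steap4 held, whereas Lcn2 was at 5.27 (edgeR adjusted p = 0.11) and S100a9 at 3.83 (edgeR adjusted p = 0.27). In combined against Control, Lcn2 lost its call without the gastric-rich libraries, at 3.56 with an edgeR adjusted p of 0.091, and none of the 3 held among males, where the smallest adjusted p was 0.064 (Steap4). In combined against Stat3 loss, S100a8 lost its call without the gastric-rich libraries (3.36, edgeR adjusted p = 0.11) and Steap4 held. Among males neither of that pair was called, with S100a8 at 3.76 and Steap4 at 3.46 (edgeR adjusted p = 0.14 and 0.054). For the averaged IKKβ effect, all 5 held without the gastric-rich libraries, where 9 targets were called, 8 higher and 1 lower. S100a9 and Il4ra did not hold among males, at 2.44 and 0.50 (edgeR adjusted p = 0.15 and 0.16).

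**Figure D4:**
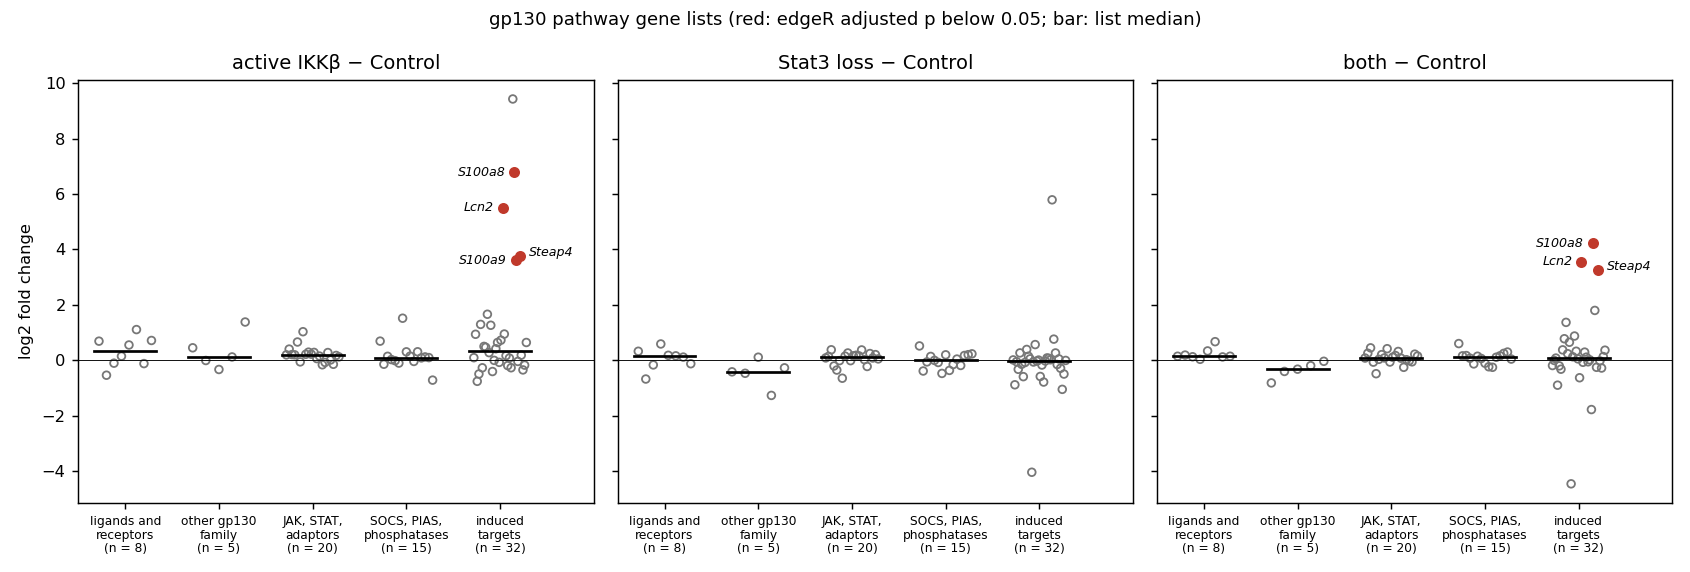
Log2 fold change against Control (vertical axis) of each tested gene in 5 lists of the gp130 pathway, in 3 panels for active IKKβ, Stat3 loss and both together; red marks an edgeR adjusted p below 0.05 and the bar the list median. Called genes appear in the list of induced targets alone, with S100a8 at 6.78 for active IKKβ and 4.23 for both, and the members' median lies at 0.35, 0.14 and 0.15.

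Stromal markers were also present in the separated epithelium. The 10 fibroblast markers, cells known to express Lif, Il11, Osmr and Il11ra1, summed to 893 to 2630 CPM in Control and 710 to 1761 CPM with active IKKβ. Stat3 loss ran from 911 to 2172 CPM and the combined group from 665 to 1447 CPM, and none of the 10 was at 0. These ranges overlap between all groups. Endothelial markers, of cells that express Il6st, summed to 105 to 153 CPM in Control, 76.9 to 249.5 with active IKKβ, 53.7 to 139.8 in the combined group and 66.5 to 83.1 with Stat3 loss. Stat3 loss lay wholly below Control for these markers. Smooth muscle markers summed to 2093 to 2682 CPM in Control and to 1165 to 4377 with active IKKβ, and lay below Control without overlap in Stat3 loss (1004 to 1763) and in the combined group (1311 to 1967). Nerve and Schwann cell markers ran from 157.9 to 382.0 CPM in Control and from 118.0 to 128.0 in the combined group, which lay below it. They ran from 144.5 to 158.6 CPM with active IKKβ and from 160.8 to 174.8 with Stat3 loss, both overlapping Control. Skeletal muscle markers summed to 22.5 to 322 CPM in Control and 60.9 to 846 with active IKKβ. With Stat3 loss they ran from 50.9 to 1738 CPM and in the combined group from 47.1 to 243, and all groups overlap. Adipocyte markers summed to 16.9 to 191.5 CPM in Control and 32.7 to 49.2 with active IKKβ. They lay below active IKKβ with Stat3 loss (15.5 to 25.25) and in the combined group (12.7 to 23.1). The part of these cells in the members' levels was not tested.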

How the data were processed

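Gene counts deposited by the authors were used as they stand, as whole numbers of reads per gene in 12 libraries, each a separate file. Per the submitters' processing notes, cutadapt 1.13, STAR, HTSeq 0.6.1p1 and DESeq2 were used with build mm10; the annotation, the strand setting and the STAR version are not given in the sources used here. Members and gene lists were chosen with earlier results of these data known.

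Counts were fitted for all 4 groups in 1 model with edgeR 4.0.16 in R 4.3.3 (limma 3.58.1), with TMM scaling, filterByExpr, robust quasi-likelihood and a prior count of 2; 14134 of 23337 genes were tested, with Benjamini-Hochberg adjustment over all of them and calls below 0.05. CPM used TMM-scaled totals, and RPKM the exon length of GENCODE M21. Intervals are at 95%, and a count of 0 allows up to 3 counts. Single values were tested by exact permutation (scipy 1.17.1). Promoters came from RefSeq GRCm38.p6. The code was tested on simulated data. Genes named were all 10 members, Stat3, Ikbkb and Nfkbia, the called genes of each list (or the 3 with the smallest adjusted p), and the 3 genes most correlated with the member of smallest adjusted p. Socs3 and the chain ratios were added after values were seen.

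The alternatives were other scaling (DESeq2 size factors, or totals), other filters, DESeq2 1.42.0 in place of edgeR, non-robust dispersions, the compared groups alone, a replicate block, males alone, leaving out both gastric-rich libraries, and leaving out each library in turn. The labels number replicates 1 to 3 in each group. Numbers were taken to pair libraries where all 3 same-numbered pairs of 2 groups correlated above 0.1 in their deviations from the group means. Combined against Stat3 loss met this (r 0.12, 0.26 and 0.14). Each other pair of groups had at least 1 correlation below it, such as 0.089 beside 0.45 and 0.42 for combined against Control. The labels name no shared source.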

Additional observations from a re-analysis of the deposited data

How the results depend on the processing

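Of 616 log2 fold changes of members under other settings with all libraries, males alone or without both gastric-rich libraries, 599 kept their direction and their side of the threshold, 15 changed sign and 2 became calls, both of Lif with DESeq2. With 1 library left out, 712 of 768 kept both, 55 changed sign and 1 became a call. Of the 64 member values 25 changed sign somewhere, and the largest of these was 0.54 in size (log2). The cause of these shifts was not tested. With the replicate block, 64 of 64 member values kept their direction and side, and genes called went from 135 to 173 in active IKKβ against Control and from 37 to 0 for the averaged Stat3 effect; in combined against Stat3 loss, where all 3 same-numbered pairs correlated above 0.1, it called 71 genes in place of 65. No scaling moved the median of all genes by over 0.1.

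Sign changes were these. Among males, Lif in Stat3 loss against Control was at -0.098, Il11ra1 there at 0.062, Il6ra in combined against Control at -0.080, Lifr for the averaged IKKβ effect at 0.16 and Clcf1 for the averaged Stat3 effect at 0.21. Without both gastric-rich libraries, Osmr in Stat3 loss against Control was at 0.034, Clcf1 in combined against active IKKβ at 0.040, Lifr in combined against Stat3 loss at -0.12, Clcf1 for the averaged Stat3 effect at 0.25, and Il11, Il11ra1 and Clcf1 for the averaged IKKβ effect at -0.16, -0.12 and -0.10. With library totals, Il6ra in combined against Control was at -0.011, Lifr in combined against Stat3 loss at -0.040 and Il6st for the averaged Stat3 effect at 0.061.

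With 1 library left out in turn, the log2 fold changes that changed sign had these ranges. In active IKKβ against Control, Lifr ran from -0.30 to 0.059 and Il11ra1 ran from -0.39 to 0.19. In Stat3 loss against Control, Lif ran from -0.040 to 0.51, Lifr ran from -0.056 to 0.29, Osmr ran from -0.27 to 0.055 and Il11ra1 ran from -0.42 to 0.13. In combined against Control, Il6ra ran from -0.12 to 0.25, Lifr ran from -0.098 to 0.33, Il11 ran from -0.070 to 0.71, Il11ra1 ran from -0.16 to 0.42 and Clcf1 ran from -0.12 to 0.50. In combined against active IKKβ, Il6ra ran from -0.26 to 0.10, Il11ra1 ran from -0.058 to 0.52 and Clcf1 ran from -0.76 to 0.040. In combined against Stat3 loss, Lifr ran from -0.22 to 0.22. For the averaged IKKβ effect, Lifr ran from -0.17 to 0.041, Il11 ran from -0.044 to 0.43, Il11ra1 ran from -0.050 to 0.24 and Clcf1 ran from -0.036 to 0.43. For the averaged Stat3 effect, Il6st ran from -0.092 to 0.058, Lif ran from -0.26 to 0.035, Il11 ran from -0.11 to 0.29, Il11ra1 ran from -0.11 to 0.18 and Clcf1 ran from -0.24 to 0.18. For the interaction, Lifr ran from -0.097 to 0.35.

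Genes called over all 14134 depended more on the fit. DESeq2 called 442, 106, 476, 131, 297, 860, 402 and 6 genes in active IKKβ against Control, Stat3 loss against Control, combined against Control, combined against active IKKβ, combined against Stat3 loss, the averaged IKKβ effect, the averaged Stat3 effect and the interaction, where edgeR called 135, 0, 125, 0, 65, 384, 37 and 0. DESeq2 called 1 member in active IKKβ against Control and 1 for the averaged IKKβ effect. In active IKKβ against Control, edgeR called 66 genes with library totals, 61 with the compared groups alone, 83 without the gastric-rich libraries and 19 among males. Combined against Control gave 53 with totals, 14 with the compared groups alone and 8 among males. Combined against Stat3 loss gave 29 with totals, 16 with the compared groups alone, 28 without the gastric-rich libraries and 7 among males. The averaged IKKβ effect gave 217 with totals and 105 among males, and the averaged Stat3 effect 0 with totals, 23 without the gastric-rich libraries and 0 among males. Leaving out 1 library gave 42 to 145, 0 to 1, 43 to 147, 0 to 1, 20 to 81, 184 to 444, 0 to 52 and 0 genes in the order above, and 0 to 1 members for the averaged IKKβ effect. The count moved by over 1.5 times in active IKKβ against Control without Control replicate 1 (42 genes) or 2 (55) or active IKKβ replicate 2 (63) or 3 (52), and in combined against Control without Control replicate 1 (55) or 2 (43) or combined replicate 1 (81) or 3 (43). In combined against Stat3 loss it did so without any library other than Control replicate 3, active IKKβ replicate 1 and combined replicate 1, and for the averaged IKKβ effect without Control replicate 1 or 2, active IKKβ replicate 2 or 3, Stat3 loss replicate 1 or 2, or combined replicate 3. For the averaged Stat3 effect it fell to 6 genes without Control replicate 2, 14 without active IKKβ replicate 2, 20 without Stat3 loss replicate 3, 15 without combined replicate 2, and 0 without active IKKβ replicate 3, Stat3 loss replicate 1 or 2, or combined replicate 1 or 3. Counts of called targets were recomputed after the data were seen. They went from 4 to 2 among males in active IKKβ against Control, and from 3 in combined against Control to 5 with DESeq2, 1 with the compared groups alone and 0 among males. In combined against Stat3 loss they went from 2 to 1 with the compared groups alone, 1 without the gastric-rich libraries and 0 among males, and for the averaged IKKβ effect from 5 to 8 with the replicate block, 9 without the gastric-rich libraries and 3 among males. With 1 library left out they ran from 3 to 4, 2 to 3, 1 to 3 and 4 to 6 in that order, with 1 in combined against Stat3 loss without active IKKβ replicate 2 or any 1 Stat3 loss library. Of 411 values of called targets, Nfkbia and Ikbkb under these settings, 332 kept their call, 79 lost it and 0 changed sign. Among males, and where a library was left out of 3, few libraries limit every test. Il6 and Osm were limited by depth, and Il11 had 229 counts in all.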
